A study of Mus musculus with 2 samples.

Results

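The Ly6 and uPAR proteins are small, cysteine-rich proteins that share the three-finger fold of snake toxins. Most are held on the outer face of the cell membrane by a glycosylphosphatidylinositol (GPI) anchor, and many of their genes lie side by side in a cluster that is on chromosome 15 in the mouse. In epithelia they are used as markers of differentiation and of stem or progenitor states, and Plaur, the receptor of the protease urokinase (uPA), localises proteolysis to the cell surface. Here 10 genes of the family were described in the embryonic mouse ureter: Psca, Ly6d, Ly6e, Ly6a, Ly6c1, Ly6g6c, Lypd2, Lypd3, Lypd6 and Plaur. They were chosen by gene name, with earlier results of these data known, as were the gene lists below. Their counts beside the shares of all genes are therefore descriptive and do not test the family. Of the 39429 probes on the array, 12 report them, as 10 of the 29982 genes measured.

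RNA of ureters from E16.5 embryos of the NMRI strain was compared on 2 dual-colour oligonucleotide arrays, array 1 with pools from female and array 2 with pools from male embryos, with the dyes exchanged between them. The mutant pools carried Pax2-cre/+; Pparg(fl/fl) and are called Pparg-cKO. The control pools carried Pparg(fl/?), in which the second Pparg allele is not specified. By the study's methods, controls were littermates without cre, and its matings allow a floxed or a wild-type second allele. Pparg encodes a nuclear receptor of the urothelium, and the floxed allele loses exons 2 and 3 wherever the Pax2-driven cre is active, which is the nephric duct and the epithelia of ureter and collecting duct. Recombination therefore leaves the mesenchyme, muscle, vessels and blood cells of the pooled ureters untouched by design. Both arrays lay on 1 slide, each held 157716 probe spots, and no spot was saturated. Because sex, dye and the pools all changed between the arrays, their effects cannot be told apart. With 2 arrays the smallest p of an exact two-sided sign-flip test of any 1 gene is 0.5.

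The dye labels and the study's text disagree on which RNA is which. RNA A is the RNA in red (AlexaFluor647) on array 1 and in green (AlexaFluor555) on array 2. By the labels it is the control. By the direction that the study's text gives for its genes it is Pparg-cKO. That direction does not rest on arrays alone. The study's in situ hybridisation at E16.5 and E18.5, which involves no array dye, found Psca, Ly6d, Ly6k, Krt20 and Upk1a strongly reduced or missing in Pparg-cKO ureters. Each of these genes gave the lower signal in RNA A on array 1 and on array 2. By these stains too, RNA A would be Pparg-cKO. The titles name Pparg-cKO before the control without saying which is the numerator, and the deposited fold changes followed RNA A over RNA B, with a correlation of 0.997 across probes on each array. RNA B is the other RNA on each array. All ratios below are log2 of RNA A over RNA B, and a value below 0 means brighter in RNA B. Because the labels conflict with the text and the stains, neither RNA is called by genotype below. The targeted gene does not settle this: the only Pparg probe (chr6:115440210-115440270, mm9) read 11295 in RNA A against 7430 in RNA B on array 1, with 12888 against 7872 on array 2, log2 ratios of 0.60 and 0.71, and its place relative to the deleted exons was not determined here. The labelled tissue showed its markers, with all 6 superficial cell genes listed, among them the uroplakin gene Upk1b, well above background in both RNAs.

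The array measures each gene through 60-base probes. The stretches that carried the largest differences and array-to-array contrasts are shown as the first 30 bases of each probe, 5′ to 3′, with the whole probe's place on chromosome 15 of mm9. No annotation of that build was used here, so exon or untranslated region is not given. None of the 12 member probes had a run of 20 bases in common with another probe on the array. Transcripts of related genes without a probe, such as Ly6c2, a near copy of Ly6c1, could still bind to the probes of Ly6c1 or Ly6a. Probes were not compared with transcripts here, and these genes are therefore less certain.
Psca, chr15:74546879-74546938, plus strand: agaactactatttgggcaagaagaacatca
Ly6d, chr15:74592551-74592610, minus strand: caggacaggaagatgtggcttgtgtcccag
Ly6k, chr15:74627529-74627588, minus strand: gaaaaacccatgcccttcctattttataag
Ly6a, chr15:74825553-74825612, minus strand: tatgagttatagaagctccaaggtgggagt
Ly6c1, brighter probe, chr15:74875495-74875554, minus strand: tattatagtatcaccatccacacataagta
Ly6c1, second probe, chr15:74877785-74877844, minus strand: agcagttacctgccgcgcctctgatggatt

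Psca and Ly6d were the members that differed most between the RNAs, and each array placed RNA B above RNA A for both genes. Psca, prostate stem cell antigen, is a GPI-anchored protein of the urothelium and other epithelia. Its processed signal was 268 in RNA A against 578 in RNA B on array 1, with 327 against 895 on array 2. RNA B exceeded RNA A 2.15-fold on array 1 and 2.74-fold on array 2, log2 ratios of -1.11 and -1.45, with a mean of -1.28 ± 0.25 (SD, n = 2 arrays).

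Ly6d, a GPI-anchored protein known as an adhesion-related antigen of keratinocytes and a marker of early B lymphocytes, read 156 in RNA A against 272 in RNA B on array 1, with 110 against 398 on array 2. RNA B was again the brighter RNA on both arrays, and the contrast was wider on the male array. The folds of RNA B over RNA A were 1.74 and 3.62, log2 ratios of -0.80 and -1.86, with a mean of -1.33 ± 0.75 (SD, n = 2 arrays). The difference between the arrays for Ly6d, 1.06 on the log2 scale, was matched or exceeded by 4.14% of all genes tested, and that for Psca, 0.35, by 43.0%.

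**Figure D1:**
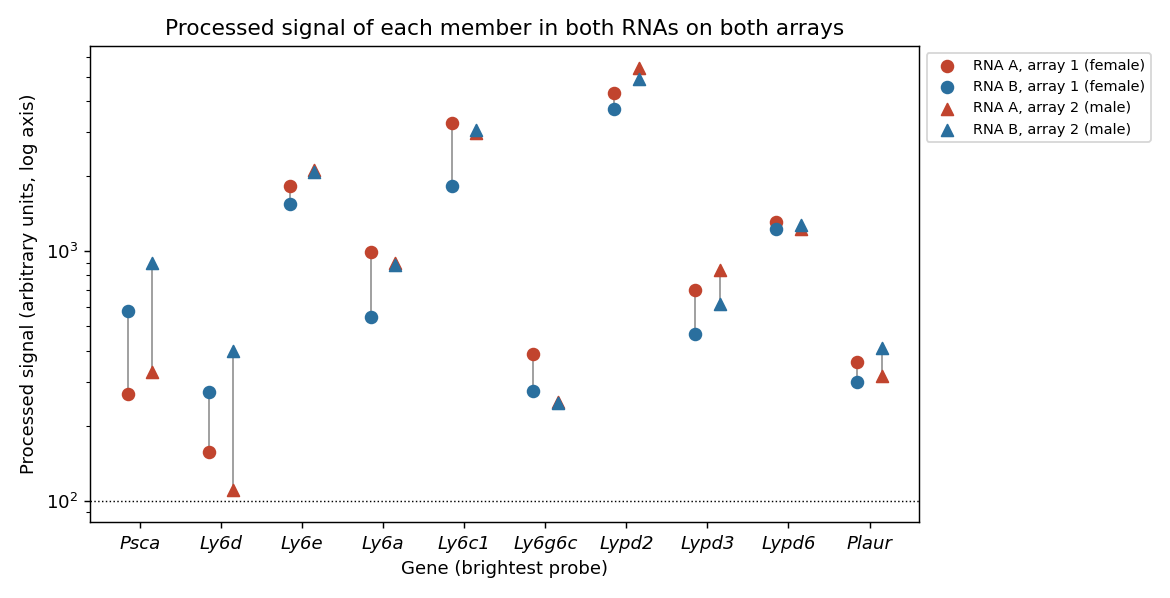
Processed signal (log axis, arbitrary units) of each member's brightest probe, in RNA A (red) and RNA B (blue), on array 1 (circles, female) and array 2 (triangles, male); the dotted line marks the signal of 100 used in the filter. Psca and Ly6d are brighter in RNA B on both arrays, while Ly6a and Ly6c1 are brighter in RNA A on array 1 and nearly level on array 2.

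A filter taken from the study's methods kept genes whose RNAs differed 1.5-fold or more the same way on each array, given that the brighter RNA read 100 or more each time; 0.541% of genes passed it in either direction. Psca and Ly6d passed it, 2 of the 10 members, both brighter in RNA B. Of the 21429 genes tested, those with 1 or both RNAs well above background on each array, 0.322% passed in that direction (69 genes) and 0.219% in the other (47 genes), where no member passed. In limma's moderated test on the 2 ratios, with Benjamini-Hochberg adjustment over all genes tested, none of the 10 members was called at 0.05, against 0.126% of genes called with RNA A brighter and 0.187% with RNA B brighter. At an unadjusted limma p under 0.05, Psca and Ly6d in RNA B and Lypd3 in RNA A were counted, against 2.1% and 1.68% of all genes in these directions.

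For Psca the limma estimate was -1.28 (95% confidence interval -1.75 to -0.81) with an adjusted p of 0.0563. For Ly6d, whose arrays lay further apart, the interval was -1.94 to -0.72 and limma's adjusted p was 0.143. Psca stood close to the threshold, and its limma call depended on the processing: its adjusted p was 0.0446 with an intensity trend, 0.0416 after median centring and 0.0273 where a gene's probes were averaged, and it ranged up to 1 over the 10 alternative fits, while its mean ratio stayed between -1.30 and -1.25. The mean ratio of Ly6d ranged from -1.36 to -1.22, and no alternative fit called it. Among all genes tested, in order from the lowest mean ratio, Ly6d was at place 48 and Psca at place 56.

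The spots of each probe lay close together within an array. The 4 Psca spots ranged from -1.15 to -1.02 on array 1 and from -1.52 to -1.39 on array 2. The Ly6d spots ranged from -0.91 to -0.68 and from -1.93 to -1.79. The spread between spots is technical and does not measure the spread between samples.

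**Figure D2:**
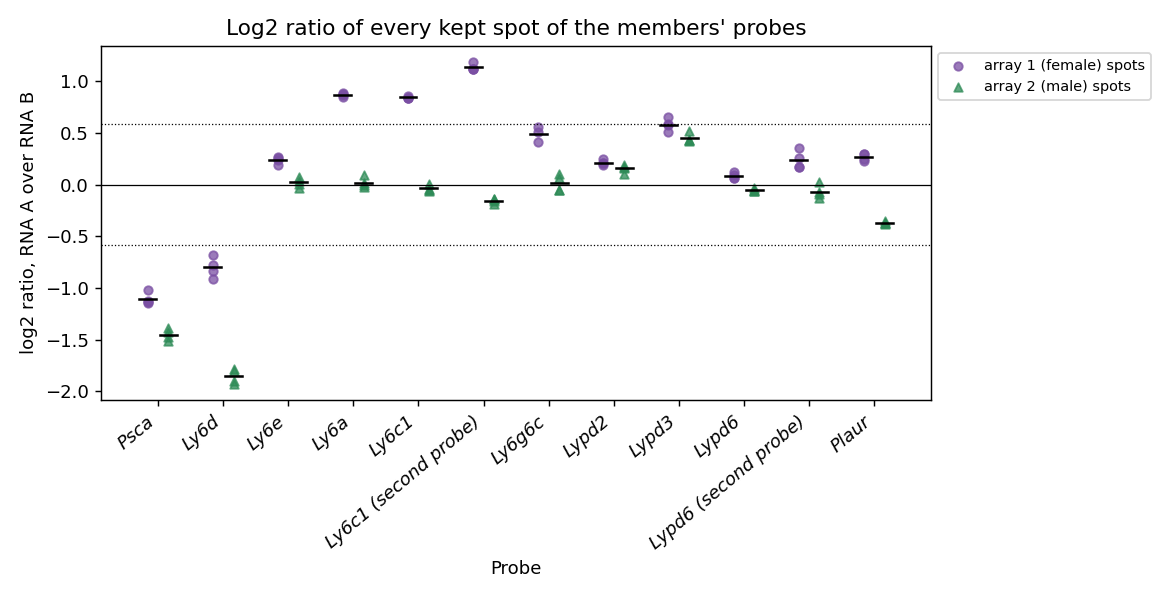
Log2 ratio of RNA A over RNA B for every kept spot (vertical axis) of the 12 member probes (horizontal axis), on array 1 (purple circles) and array 2 (green triangles), with black bars for the mean of the spots and dotted lines at 1.5-fold. The Psca and Ly6d spots lie below the lower line on both arrays, and the spots of both Ly6c1 probes lie above the upper line on array 1 alone.

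In the pooled tissue, fewer cells of a type and less RNA per cell cannot be told apart. Genes of superficial cells, the luminal cells that carry the uroplakin plaques, lay on the same side as Psca and Ly6d. By the study's in situ hybridisation, Psca and Ly6d were themselves specific to superficial cells in control ureters at E16.5, E18.5 or both. All 6 listed superficial cell genes were below 0 on both arrays, against 17.4% of all genes tested, and 4 passed the filter, against 0.322%. Those past it were Upk1a (-1.42 and -1.22), Upk3a (-0.64 and -0.77) and Upk3b (-1.67 and -1.71), which encode uroplakins, and Krt20 (-1.96 and -0.92), a keratin of the luminal layer. limma called 2 of the 6, Upk3b (adjusted p 0.0201) and Upk1a (0.0451), against 0.187% of genes with RNA B brighter. The summed signal of the 6 genes was 50739 and 49171 in RNA A on arrays 1 and 2, and 82481 and 86415 in RNA B on the same arrays. Each of these genes was well above background in both RNAs. The 4 basal cell markers (Krt5, Krt14, Krt15 and Trp63) had a median of 0.34 on array 1 and 0.39 on array 2 with none past the filter, and their summed signal was 4492 and 4797 in RNA A and 3885 and 3812 in RNA B. The 8 pan-epithelial genes had medians of -0.36 and -0.05, with summed signals of 63740 and 81836 in RNA A and 92295 and 87319 in RNA B. Of 9 genes of mesenchyme and smooth muscle, 5 were below 0 on both arrays, with none past the filter and medians of -0.24 and -0.07. These were the contractile genes Acta2 (-0.24 and -0.87), Tagln (-0.43 and -0.69), Myh11 (-0.42 and -1.18) and Cnn1 (-0.55 and -0.89), and the collagen gene Col3a1 near 0 (-0.12 and -0.04). The mesenchymal genes Col1a1 (-0.80 and 0.67), Col1a2 (-0.13 and 0.09), Pdgfra (0.03 and -0.06) and Dcn (0.26 and -0.07) had opposite signs. At an unadjusted limma p under 0.05 there were 4 of the 9 in RNA B, against 2.1% of all genes. The summed signal of this list was 290817 and 312280 in RNA A and 330991 and 346377 in RNA B. The part of these cell type markers in the Psca and Ly6d differences was not tested.

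By the distance between ratio pairs over the 2 arrays, the genes past the filter nearest to Psca, of 116, were Tlcd4 (-1.25 and -1.51), Vsig2 (-1.26 and -1.42) and Ctse (-1.05 and -1.18), the last of which encodes the aspartic protease cathepsin E. Among the nearest to Ly6d were Prap1 (-0.64 and -1.51) and Psca itself. This nearness rests on 2 arrays.

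**Figure D3:**
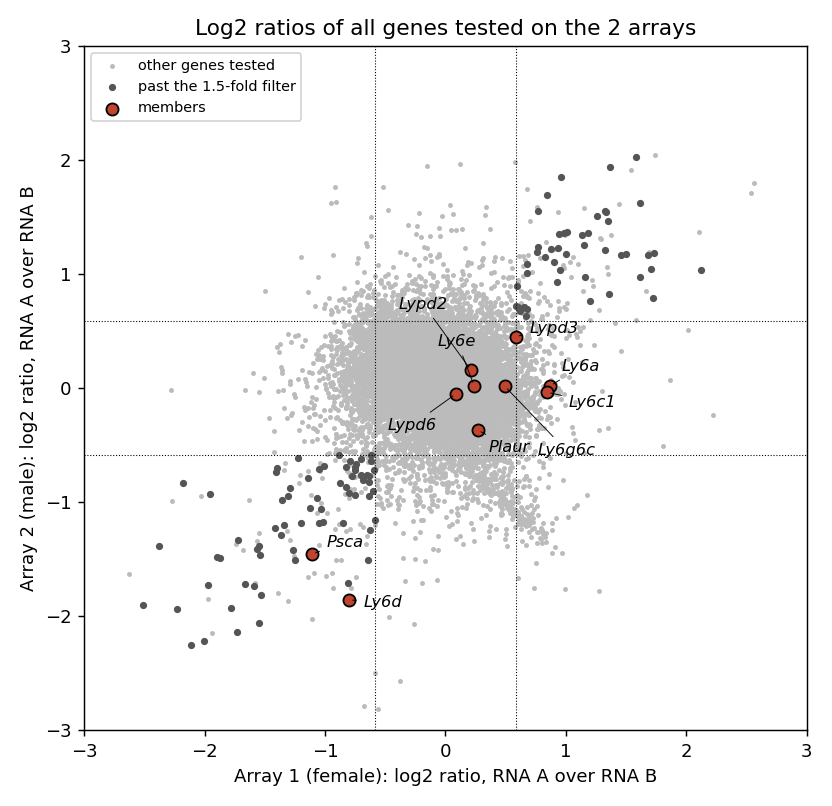
Log2 ratio of RNA A over RNA B on array 1 (horizontal axis) and array 2 (vertical axis) for 21429 genes tested (grey), the 116 past the 1.5-fold filter (dark) and the 10 members (red, labelled), with dotted lines at 1.5-fold; 8 genes beyond ±3 are outside the axes. Psca and Ly6d lie in the lower left corner with genes that passed, and the other 8 members lie outside both corners.

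Ly6a and Ly6c1 were past 1.5-fold on the female array alone. Ly6a, known as Sca-1, marks haematopoietic stem cells and is also made by endothelium and mesenchyme. It read 992 in RNA A against 543 in RNA B on array 1, with 894 against 882 on array 2. RNA A was brighter on array 1 and the RNAs were nearly level on array 2. The log2 ratios were 0.87 and 0.02, with a mean of 0.44 ± 0.60 (SD, n = 2 arrays) and a limma interval of -0.11 to 1.00.

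Ly6c1, one of the Ly6C antigens of endothelium and leukocytes, had 2 probes. The brighter one read 3279 in RNA A against 1826 in RNA B on array 1, with 2994 against 3071 on array 2, log2 ratios of 0.84 and -0.04. Its second probe read 1215 and 553 on array 1, and 1013 and 1129 on array 2, ratios of 1.14 and -0.16. Both probes thus placed RNA A above RNA B on array 1 and slightly below it on array 2. On array 1 alone, Ly6a and Ly6c1 were past 1.5-fold at a signal of 100 as 2 of the 10 members, as were 1.5% of all genes tested in that direction. On array 2 alone no member was, against 1.4% of genes. The limma interval of Ly6c1 was -0.16 to 0.97. The contrast between arrays, 0.85 for Ly6a and 0.88 for Ly6c1, was matched or exceeded by 8.21% and 7.44% of genes. Whether it belongs to sex, to dye or to the pools cannot be told apart.

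Other genes of vessels gave mixed values. Gpihbp1, a family gene that carries lipoprotein lipase to the capillary wall, read 1906 in RNA A against 1257 in RNA B on array 1, with 1586 against 1625 on array 2. Its ratios of 0.60 and -0.03 placed it beside Ly6a and Ly6c1. Of 10 endothelial genes listed, 7 were above 0 on array 1 and 3 on array 2, and none passed the filter. The defining markers Pecam1 (0.66 and -0.42) and Cdh5 (-0.44 and 0.21) went opposite ways on each array. Emcn (0.60 and -0.16), Tek (0.50 and -0.05) and Esam (0.38 and -0.09) were above 0 on array 1 and slightly below it on array 2, as Ly6c1 was. Others were unlike Ly6c1: Egfl7 (-0.20 and -0.38) was below 0 on both arrays, Cldn5 (0.18 and 0.37) was above 0 on both, and Kdr gave -0.07 and 0.14. The summed endothelial signal was 26248 in RNA A against 23955 in RNA B on array 1, with 26712 against 27343 on array 2. The 8 myeloid genes with a probe had medians of 0.18 and 0.11, with Adgre1, the F4/80 antigen of macrophages, at 0.18 and 0.23 and Cd14, a coreceptor for bacterial lipopolysaccharide, at -0.63 and -0.39. Their summed signal was 15740 in RNA A against 13630 in RNA B on array 1, with 14499 against 17599 on array 2. Itgam alone set the order on array 2, since without it the sums were 5577 against 4635 and 5539 against 5106. The part of endothelial and myeloid RNA in the Ly6a and Ly6c1 values was not tested.

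Ly6e, a membrane protein that limits coronavirus infection and is needed in the placenta, is like Ly6a induced by interferon. Its signals were 1829 in RNA A against 1551 in RNA B on array 1, with 2112 against 2081 on array 2, ratios of 0.24 and 0.02. RNA A was the brighter by a small margin on array 1, with level signals on array 2. Among 10 interferon response genes tested, 7 were above 0 on both arrays, 1 was below 0 on both and 2 had opposite signs. Of all genes tested, 21.6%, 17.4% and 61% did so. The medians of the list were 0.36 and 0.21, and none passed the filter. None of them was called by limma, and Ifit1 (0.95 and 0.68) was the only one at an unadjusted p under 0.05.

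Lypd3, also called C4.4A, is a GPI-anchored protein of the suprabasal layers of squamous epithelia. It read 697 in RNA A against 466 in RNA B on array 1, with 842 against 616 on array 2. RNA A was the brighter one each time. The ratios were 0.58 and 0.45, with a mean of 0.52 ± 0.09 (SD, n = 2 arrays) and a limma interval of 0.07 to 0.97, and the limma adjusted p was 1.00. Lypd3 was short of 1.5-fold on both arrays, by a narrow margin on array 1. It was the member with the highest mean ratio, at place 328 from the top of all genes tested.

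Genes of stratified squamous epithelium, where Lypd3 and Ly6d are also known, moved in both directions. Of 11 tested, Krt4 (1.01 and 1.37) and Krt6a (1.36 and 1.94), keratins of squamous epithelia, passed the filter in RNA A. Sprr1a (-1.12 and -1.05) and Ivl (-0.85 and -1.18), genes of the cornified envelope, passed it in RNA B. Krt6b (1.74 and 2.05) was too dim for the filter and was called by limma, with an adjusted p of 0.0138, as was Krt6a (0.0297). The summed signal of the list was 25933 in RNA A against 34453 in RNA B on array 1, with 19452 against 37575 on array 2. Without Sprr1a these sums were 15524 against 11778 and 6227 against 10197, so that this gene alone set the order on array 1. By gene, 8 of the 11 were above 0 on array 1 and 4 on array 2, with medians of 0.35 and -0.31.

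The remaining surface proteins gave smaller ratios. Lypd2, whose gene sits in the chromosome 15 cluster, read 4306 in RNA A against 3720 in RNA B on array 1, with 5458 against 4892 on array 2. Both ratios were small and above 0, at 0.21 and 0.16, and its arrays differed least among the members, by 0.05. Ly6g6c, encoded in the class III region of the major histocompatibility complex, read 386 and 274 on array 1, where 3 spots were kept, and 248 and 245 on array 2. It too was brighter in RNA A on array 1 (0.49) and level on array 2 (0.02).

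Lypd6, which takes part in Wnt signalling at the membrane, had 2 probes. The brighter one read 1310 in RNA A against 1234 in RNA B on array 1, with 1230 against 1274 on array 2. The ratios were 0.09 and -0.05, so the RNAs changed places between the arrays by a margin near 0. The dimmer probe, at signals of 88 to 105, gave 0.24 and -0.07. The limma interval was -0.43 to 0.47.

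Plaur, the uPA receptor, was the member with opposite signs of some size. It read 359 in RNA A against 298 in RNA B on array 1, with 317 against 409 on array 2. RNA A was brighter on the female and RNA B on the male array, with ratios of 0.27 and -0.37. The mean was -0.05 ± 0.45 (SD, n = 2 arrays), with a limma interval of -0.56 to 0.46. Its ligand gene Plau, which encodes uPA, read 69.5 in RNA A against 69.1 in RNA B on array 1, with 83.8 against 71.2 on array 2, ratios of 0.01 and 0.24. Of 14 genes of the uPA system tested, which hold the proteases, their serpin inhibitors and the integrins that bind the receptor, 0 passed the filter and limma called 0. At an unadjusted limma p under 0.05 there was 1 of them. Their median was 0.01 on array 1 and -0.01 on array 2, against medians of 0.00 and 0.03 over all genes tested.

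Read together, 5 members were above 0 on both arrays, 2 were below 0 on both and 3 (Ly6c1, Lypd6 and Plaur) had opposite signs, against 21.6%, 17.4% and 61% of all genes tested. The members' median was 0.25 on array 1, -0.01 on array 2 and 0.16 for the mean of the arrays, where all genes tested had a median mean ratio of 0.01. In all 10 members the ratio lay higher on array 1 than on array 2, which held for 47.7% of genes tested. This order was the same for the 10 members under each of the 6 other normalisations, tables or spot rules compared, where the share of all genes ran from 44.1% to 49.4%. Dye, sex and pool cannot be told apart here either.

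The family beyond the members was followed through a list of 26 further genes, of which 25 had a probe and 19 were tested. Of these, 1 passed the filter, Ly6k, a GPI-anchored protein best known from testis. It read 86.8 in RNA A against 178 in RNA B on array 1, with 105 against 219 on array 2. RNA B was brighter on both arrays to nearly the same degree, at -1.03 and -1.06. The limma adjusted p was 0.110. limma called none of the 19, and 1 above 0 and 2 below 0 were at an unadjusted p under 0.05. Over the whole family of 29 genes tested, 3 passed the filter in RNA B and 0 in RNA A, against 0.322% and 0.219% of all genes. By sign, 12 were above 0 on both arrays, 8 below 0 on both and 9 opposite, against 21.6%, 17.4% and 61%.

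Among the family genes with ratios above 0, Slurp1, a secreted modulator of nicotinic acetylcholine receptors, read 99.8 in RNA A against 74.1 in RNA B on array 1, with 120 against 87.7 on array 2, ratios of 0.43 and 0.45. Lypd6b, a close relative of Lypd6, gave 0.35 and 0.58. Neither was past the filter. Cd59a, which protects cells from complement, gave 0.16 and -0.27. The machinery that builds and remodels the GPI anchor gave no calls: of 27 genes tested, 0 passed the filter or limma, 0 were at an unadjusted limma p under 0.05, and the medians were 0.02 and -0.02.

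**Figure D4:**
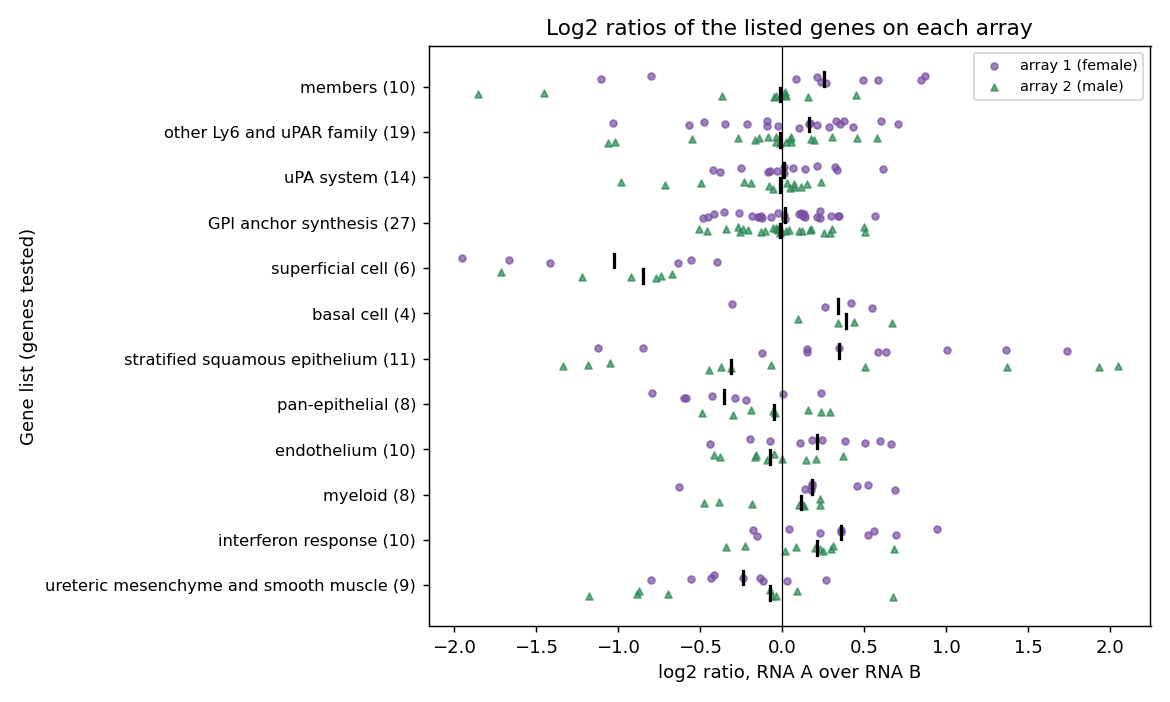
Log2 ratio of RNA A over RNA B (horizontal axis) for each tested gene of the lists (vertical axis, number tested in brackets) on array 1 (purple circles) and array 2 (green triangles), with black bars at the median; points are spread vertically for visibility. The superficial cell genes lie below 0 on both arrays, while the uPA system and GPI anchor lists centre near 0.

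Along chromosome 15, Psca, Ly6d and Ly6k were neighbours but not an unbroken run. Within 500 kb of the outermost member probes, 41 genes had a probe, from the first to the last at chr15:74270624-75281724 (mm9), and 24 were tested. The 3 genes past the filter were all listed family genes, of 11 family genes tested, and none of the other 13 genes passed, where 0.541% of all genes tested did in either direction. The Psca and Ly6d probes started 45.7 kb apart and those of Ly6d and Ly6k 35.0 kb apart. Between Psca and Ly6k lay 4 more tested genes, Slurp1, Lypd2, Slurp2 and Lynx1, and none of them was past 1.5-fold on either array. Slurp2 is also a Ly6 gene but was not on the list and is counted with the other 13. The genes on the far side, Ly6e, Ly6a and Ly6c1, were not past the filter, and the Ly6a and Ly6c1 probes lay 49.9 kb apart. Next to Ly6k, Cyp11b1, a steroid hydroxylase of the adrenal cortex, was far below 0 on array 2 alone (-0.26 and -2.07).

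**Figure D5:**
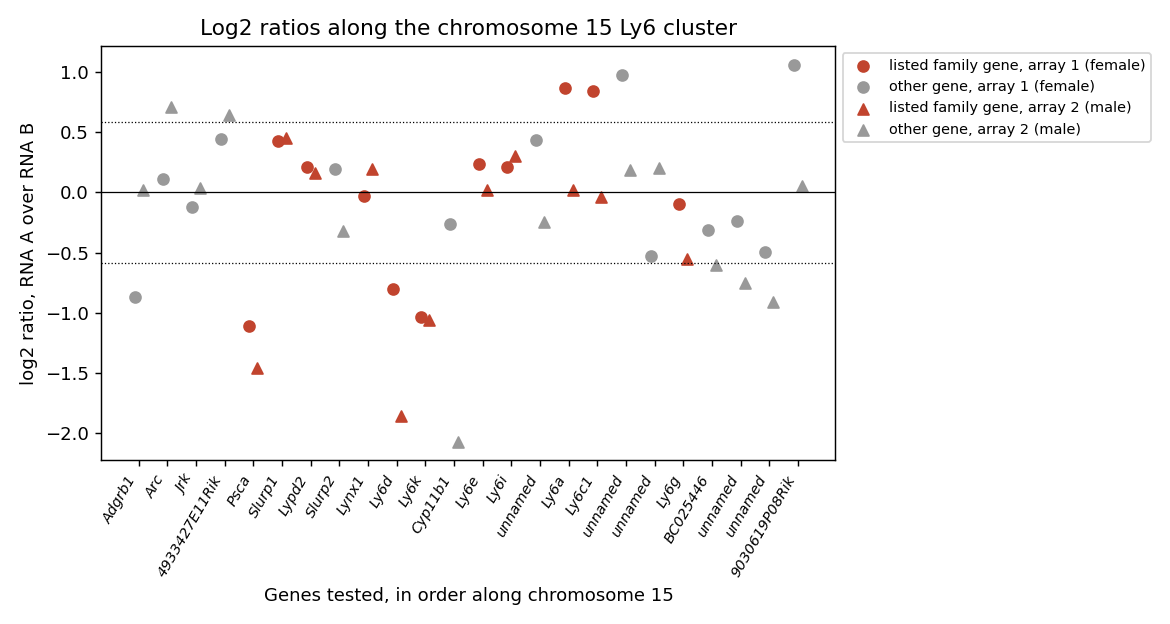
Log2 ratio of RNA A over RNA B (vertical axis) for the 24 genes tested around the Ly6 cluster, in their order along chromosome 15 (horizontal axis, not to scale), for listed family genes (red) and other genes (grey) on array 1 (circles) and array 2 (triangles), with dotted lines at 1.5-fold. Psca, Ly6d and Ly6k are below the lower line on both arrays, with Slurp1, Lypd2, Slurp2 and Lynx1 between them inside the lines.

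PPARG binds DNA with a partner receptor at a repeat of AGGTCA spaced by 1 base (DR1). Promoter sequences from RefSeq (GRCm38.p6) matched 5 of the 10 members: Ly6c1, Ly6g6c, Lypd3, Lypd6 and Plaur. Psca, Ly6d, Ly6e, Ly6a and Lypd2 had no entry. The 250 bases before the start were searched on both strands. AGGTCANAGGTCA was in 0 of the 5 and in 0.0335% of 32851 promoters. The relaxed form AGGNCANAGGNCA, which includes the first, was in 0.338% of promoters and, of the members, in Lypd3, beginning 178 bases before its start. AGGTCA alone was in 14% of promoters and in Ly6c1. The Lypd3 stretch is shown because it is the member promoter with the relaxed repeat, which is in capitals. A match of letters is a description, and binding was not measured here.
Lypd3, chr7:24636320-24636569, plus strand: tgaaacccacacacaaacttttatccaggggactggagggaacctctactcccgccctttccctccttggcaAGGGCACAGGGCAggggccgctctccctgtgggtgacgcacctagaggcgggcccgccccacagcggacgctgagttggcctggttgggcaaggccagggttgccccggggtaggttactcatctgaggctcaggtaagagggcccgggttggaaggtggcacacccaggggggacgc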

How the data were processed

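Total RNA of pooled, sex-sorted E16.5 ureters was hybridised on 2 dual-colour Agilent arrays and read with Agilent Feature Extraction 10.7.3.1. The processed intensity of each spot, as deposited by the authors, was background-subtracted and dye-normalised within the array by that program (linear and LOWESS steps). The mean and background intensities deposited beside it served an alternative. The value table deposited by the authors holds signed fold changes, whose numerator is not stated, with a correlation of 0.997 with the RNA A over RNA B ratios on each array over 18540 probes. It served as another alternative. The stage label of the second channel differs from the titles, which were followed.

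Control spots and outlier spots (5705 on array 1, 5579 on array 2) were left out, log2 signals were averaged over spots, and a gene was represented by its brightest probe (the highest mean over the 4 signals). Probe names were updated through RefSeq for 28328 of 39429 probes. Genes were fitted with limma 3.58.1 (R 4.3.3; intercept, eBayes, Benjamini-Hochberg at 0.05). Each array is 1 pool per RNA, so p-values cover the spread between 2 arrays of different sex, dye and pools. Plots were drawn with matplotlib 3.10.9 and tables made with pandas 2.3.3 and, in R, with data.table (version 1.17.8). The members and the gene lists were chosen with earlier results of these data known. Named are all members with each probe, listed genes past the filter or limma, Ly6k, Plau and defining markers beside a result, the 3 genes nearest to each member past the filter (1 of these is not reported here), and family genes near the chromosome 15 cluster. Gpihbp1, Slurp1, Slurp2, Lynx1, Lypd6b, Cd59a, Ifit1, Cyp11b1, Cd14, Itgam, Emcn, Tek, Esam, Egfl7, Cldn5, Kdr and the genes of mesenchyme and smooth muscle were named after their values were seen. Alternatives covered background correction, normalisation, probe and spot rules, thresholds, the fit and each array alone.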

Additional observations from a re-analysis of the deposited data

Results flagged for a closer look

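The female and male arrays pointed opposite ways for 3 members: Ly6c1, at 0.84 on array 1 and -0.037 on array 2, Lypd6, at 0.086 and -0.051, and Plaur, at 0.27 and -0.37 (log2, RNA A over RNA B). There was 1 array per sex, which allows no test of it, so it stands as untested, and 61% of all genes tested had opposite signs on the 2 arrays.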

How the results depend on the processing

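Over the 10 alternative fits, none of the 10 members' mean ratios changed sign, whereas a single array gave Ly6c1, Lypd6 and Plaur a sign that depended on the array. Psca crossed the limma threshold in 3 fits, so 1 member was called in RNA B with median centring, with averaged probes and with an intensity trend, against none otherwise. At 2-fold, 1 member (Psca) passed the filter in RNA B. With a single array, 0 to 2 members passed in RNA A and 2 in RNA B. Of all genes, the filter kept 28 as brighter in RNA A at a signal of 200. Where the threshold of 100 was exchanged for well above background, it kept 128 for RNA A and 148 for RNA B, and at 2-fold 19 and 29. Without 1 of the replicates it kept 300 to 321 for RNA A and 488 to 637 for RNA B. limma called 1 gene for RNA A and 0 for RNA B with normexp and loess, 8 and 20 with loess on processed signals, 0 and 0 with the authors' table, 0 and 0 without a filter on dim probes, and 16 in RNA A with the median over spots. The array pairs the 2 RNAs in the ratio, and with separate channels and no replicate block limma called 1 gene in RNA A and 0 in RNA B. The cause of these changes was not tested. All 12 member probes were well above background in both RNAs.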
